A study of Arabidopsis thaliana with 4 samples.

Results

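The late anthocyanin genes were followed in Arabidopsis thaliana seedlings as a set of 7 loci, given by locus identifier and found among the 33341 genes of the count files. They comprise the enzyme genes DFR (AT5G42800), LDOX (AT4G22880), UGT78D2 (AT5G17050), UGT79B1 (AT5G54060), UGT75C1 (AT4G14090) and 5MAT (AT3G29590), and the transport gene TT19 (AT5G17220). Polyadenylated RNA of whole seedlings, aged 12 days and kept on MS medium with 1% sucrose at 22 °C in days of 16 h light and 8 h darkness, was sequenced in 4 libraries. Of these, 2 were of the Col wild type, 1 of the mutant atprmt3 and 1 of the mutant rps2a2b. The library titles write the mutants as atprmt3-2 and rps2a2b-1, and the labels do not say whether the suffix is an allele, a line or a library number. The labels describe neither the mutations nor how many plants were pooled. Per the series title, the study concerns PRMT3, a protein arginine methyltransferase, and its partner RPS2B, a protein of the small ribosomal subunit, in pre-ribosome assembly and nucleolar stress.

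Anthocyanins are the red to purple vacuolar pigments of seedlings, made from dihydroflavonols in the last steps of the flavonoid pathway. DFR (dihydroflavonol reductase) and LDOX (anthocyanidin synthase) form the coloured anthocyanidin, glycosyltransferases and acyltransferases add sugars and acyl groups, and the glutathione transferase TT19 is needed to bring the pigment to the vacuole. In seedlings the late genes are known to be switched on by a complex of MYB, bHLH and WD-repeat proteins, and the small MYB protein MYBL2 is known to repress them.

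Each library held between 15194770 and 18650053 counts on genes. The Col libraries differed by no more than counting noise, with a chi-square per gene of 0.99 (p = 0.843) over 20569 genes, where counting alone gives about 1. They were therefore summed and counted as 1 sample, so each genotype has n = 1, no difference between genotypes has a replicate check, and no p-value is given for any gene. Genotype and library cannot be told apart. The PRMT3 gene itself (AT3G12270) had 237 and 254 counts in Col, 132 in atprmt3 and 315 in rps2a2b, and RPS2A (AT1G58380) had 334 and 318, 580 and 167. RPS2B (AT1G59359) was listed at 0 in all 4 libraries, which checks nothing, as it has near-identical copies.

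Of the 7 late genes, 6 stood at least 2-fold above Col in atprmt3, and the same 6 did in rps2a2b. The exception in both was UGT78D2. Among the 20937 genes tested, 8.95% were at least 2-fold higher in atprmt3 and 9.96% in rps2a2b. The median log2 fold change of the 7 genes was 3.84 in atprmt3 and 3.91 in rps2a2b, beside 0.01 over all genes tested in each comparison. Both comparisons use the same Col libraries, so they are not independent of each other. All 7 genes passed the filter on low counts, but UGT79B1 and 5MAT had too few Col counts to pass other than through the mutants, and so had to differ, and LDOX reached 10 counts in 1 Col library alone. The other 4 genes had at least 10 counts in each Col library, and 3 of these 4 were at least 2-fold higher in either mutant. Over all 19249 genes with that many Col counts, the shares were 4.48% in atprmt3 and 5.22% in rps2a2b. In whole seedlings, more cells with a transcript and more transcript per cell cannot be told apart.

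DFR (chromosome 5, 17164093 to 17166032, minus strand), which reduces dihydroflavonols to leucoanthocyanidins, was read 11 and 18 times in Col, 259 times in atprmt3 and 232 times in rps2a2b. As counts scaled to library size (CPM), DFR stood at 0.727 and 1.19 in Col and at 13.7 and 14.4 in atprmt3 and rps2a2b. Both mutant libraries lay more than 10-fold above both Col libraries. The fold over Col was 14.3 in atprmt3 (95% counting interval 9.72 to 21.8) and 15 in rps2a2b (10.2 to 22.9). On the log2 scale the fold changes were 3.84 ± 0.92 and 3.91 ± 0.92. Values after ± are standard errors (SE) of read sampling, widened by a factor. Counting variances were multiplied by 6.01 in a mutant library and by 11 in the summed Col libraries. The factor 11 was derived from 6.01 for 2 summed libraries and was not measured in Col. The Col pair itself gave a chi-square per gene of 0.994 among genes with 10 to 99 summed counts. The factor 6.01 is the chi-square per gene between the mutant libraries among genes with 10 to 99 summed counts. It takes in reads counted in groups and any difference between the 2 mutants and their plants, which cannot be told apart. Over all genes with at least 10 summed counts the same pair gave 18, so the errors are no upper limit for well-counted genes. Variation between plants of a genotype was not measured, and the intervals cover independent counting error only.

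LDOX (chromosome 4, 12004726 to 12006209, minus strand), whose product makes the coloured anthocyanidin, was read 11 and 4 times in Col, 239 times in atprmt3 and 243 times in rps2a2b. This made 0.727 and 0.265 CPM in Col, 12.7 in atprmt3 and 15.1 in rps2a2b. Both Col libraries lay far below both mutants. LDOX stood 25.5-fold above Col in atprmt3 (15.2 to 46.3) and 30.4-fold in rps2a2b (18.1 to 55.2), or 4.67 ± 1.3 and 4.93 ± 1.3 on the log2 scale. The few Col counts make this fold depend on 1 library: without Col library 1 it was 47.8 and 57.0, and without Col library 2 it was 17.4 and 20.8.

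The stretches before the annotated gene starts of DFR, LDOX, UGT79B1, 5MAT and UGT78D2 are shown because the first 4 genes stood together above Col and UGT78D2 did not. Each is the 250 bases upstream of the start in RefSeq TAIR10.1, 5′ to 3′ on the gene's strand, and none of the 5 windows overlaps another annotated gene. Capitals mark 3 motifs, read on both strands. They are the G-box CACGTG and the wider E-box CANNTG, both bound by bHLH proteins, and the AC-type element ACCNANC, a pattern bound by MYB proteins of the phenylpropanoid pathway. Where a motif lies on the other strand, its reverse complement is in capitals.
DFR, chr5:17166033-17166282, minus strand: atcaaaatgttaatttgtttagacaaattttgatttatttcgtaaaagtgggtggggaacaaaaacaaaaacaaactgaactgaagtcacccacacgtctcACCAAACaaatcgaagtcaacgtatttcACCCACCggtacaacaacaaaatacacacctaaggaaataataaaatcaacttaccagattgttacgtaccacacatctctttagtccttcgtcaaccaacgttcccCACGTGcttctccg
LDOX, chr4:12006210-12006459, minus strand: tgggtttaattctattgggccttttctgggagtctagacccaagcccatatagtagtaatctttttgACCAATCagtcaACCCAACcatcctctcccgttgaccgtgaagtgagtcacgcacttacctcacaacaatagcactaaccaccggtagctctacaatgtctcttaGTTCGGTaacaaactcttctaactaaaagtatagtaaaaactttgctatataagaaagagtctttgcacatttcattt
UGT79B1, chr5:21938397-21938646, minus strand: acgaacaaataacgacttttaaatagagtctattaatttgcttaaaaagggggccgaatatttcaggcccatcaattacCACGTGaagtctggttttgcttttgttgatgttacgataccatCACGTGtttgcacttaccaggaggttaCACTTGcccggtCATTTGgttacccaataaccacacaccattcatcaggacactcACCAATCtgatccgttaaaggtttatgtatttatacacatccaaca
5MAT, chr3:11400333-11400582, minus strand: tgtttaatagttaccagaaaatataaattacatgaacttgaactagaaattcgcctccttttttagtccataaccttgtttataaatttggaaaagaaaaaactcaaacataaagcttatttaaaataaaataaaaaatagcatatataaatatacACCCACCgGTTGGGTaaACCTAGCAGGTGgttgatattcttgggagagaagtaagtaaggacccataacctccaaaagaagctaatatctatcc
UGT78D2, chr5:5609590-5609839, minus strand: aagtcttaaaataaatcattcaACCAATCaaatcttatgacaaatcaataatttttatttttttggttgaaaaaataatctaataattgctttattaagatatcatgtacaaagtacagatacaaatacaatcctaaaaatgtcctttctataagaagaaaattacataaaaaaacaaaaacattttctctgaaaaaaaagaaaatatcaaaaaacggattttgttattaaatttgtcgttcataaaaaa
A match to ACCNANC was present before all 7 late genes, UGT78D2 included, while 27.8% of 27437 protein-coding genes had one in a window of the same length. The G-box was present before 2 of the 7, DFR and UGT79B1, against 6.49% of all genes. An E-box of any kind, the G-box among them, was present before 4 of the 7, against 55.3%. In 5MAT one E-box shares a base with an AC-type match. These are matches of letters, and binding was not measured.

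Among the 3 glycosyltransferase genes, UGT78D2 stood apart. UGT78D2 (chromosome 5, 5607788 to 5609589, minus strand), which attaches glucose to anthocyanidins and also to flavonols, had 319 and 316 counts in Col against 467 in atprmt3 and 469 in rps2a2b. Its levels were 21.1 and 20.9 CPM in Col, 24.7 CPM in atprmt3 and 29.2 CPM in rps2a2b. UGT78D2 thus had many counts in every library, and the mutants lay above Col by 1.18-fold (1.04 to 1.33) and 1.39-fold (1.23 to 1.57). Both log2 fold changes, 0.24 ± 0.25 and 0.47 ± 0.25, had 95% ranges by these SEs that include 0.

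UGT79B1 (chromosome 5, 21936746 to 21938396, minus strand), which adds xylose to the glucose that UGT78D2 attaches, had 4 and 8 counts in Col, 163 in atprmt3 and 246 in rps2a2b. In CPM it stood at 0.265 and 0.53 in Col, 8.64 in atprmt3 and 15.3 in rps2a2b. Both mutants were far above Col, rps2a2b more so. The folds were 21.7 in atprmt3 (12.1 to 43.0) and 38.5 in rps2a2b (21.7 to 75.6), which is 4.44 ± 1.4 and 5.27 ± 1.4 on the log2 scale. Without Col library 2 these folds moved 1.5 times upward, to 32.7 and 57.8, and without Col library 1 they fell to 16.3 and 28.9.

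UGT75C1 (chromosome 4, 8122188 to 8123835, minus strand), which glucosylates anthocyanins at a further position, had 34 and 33 counts in Col, 305 in atprmt3 and 358 in rps2a2b. The corresponding levels were 2.25 and 2.19 CPM, 16.2 CPM and 22.3 CPM. UGT75C1 was thus detected in Col and stood 7.29-fold (5.58 to 9.64) and 10-fold (7.72 to 13.2) higher in the mutants, or 2.87 ± 0.62 and 3.33 ± 0.61 on the log2 scale. Its end overlaps AT4G14100 on the other strand by 230 bases, and the strand setting of the counting is not given in the sources used here. AT4G14100 had 247 and 238 counts in Col, 351 in atprmt3 and 279 in rps2a2b, or log2 fold changes of 0.21 and 0.11. AT4G06175, annotated as antisense within UGT75C1, had 3 counts in atprmt3 and 0 in the other libraries.

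5MAT (chromosome 3, 11398592 to 11400332, minus strand), for the acyltransferase that places a malonyl group on the glucose added by UGT75C1, had 0 counts in each Col library but 189 in atprmt3 and 102 in rps2a2b. The mutants thus stood at 10 CPM (8.64 to 11.5) and 6.34 CPM (5.17 to 7.7). 5MAT was read in the mutants and in neither Col library. Taking 3 counts over the summed Col libraries as the limit that a count of 0 allows, 5MAT was at least 101-fold higher in atprmt3 and at least 63.9-fold higher in rps2a2b. These bounds leave out the counting error of the mutant libraries, and the exact 95% counting intervals of the folds, which hold it, begin lower, at 81.2 and 51. The bounds also depend on the Col depth, as they fell to 50.4-fold and 31.9-fold without Col library 1 and to 50.5-fold and 32-fold without Col library 2. Reads counted in groups would lower them further, and all of the 50-base stretches of 5MAT are unique in the genome.

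TT19 (chromosome 5, 5658416 to 5659661, plus strand) had 19 and 14 counts in Col, 157 in atprmt3 and 139 in rps2a2b. That is a level of 1.26 and 0.928 CPM in Col, 8.32 in atprmt3 and 8.65 in rps2a2b. The mutants were nearly equal and both well above Col, at 7.62-fold (5.21 to 11.4) and 7.92-fold (5.38 to 11.9), or 2.93 ± 0.88 and 2.98 ± 0.89 on the log2 scale. Its last 108 bases overlap PSY (AT5G17230), the phytoene synthase gene, on the other strand. PSY stood at log2 fold changes of 0.03 and -0.36.

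**Figure D1:**
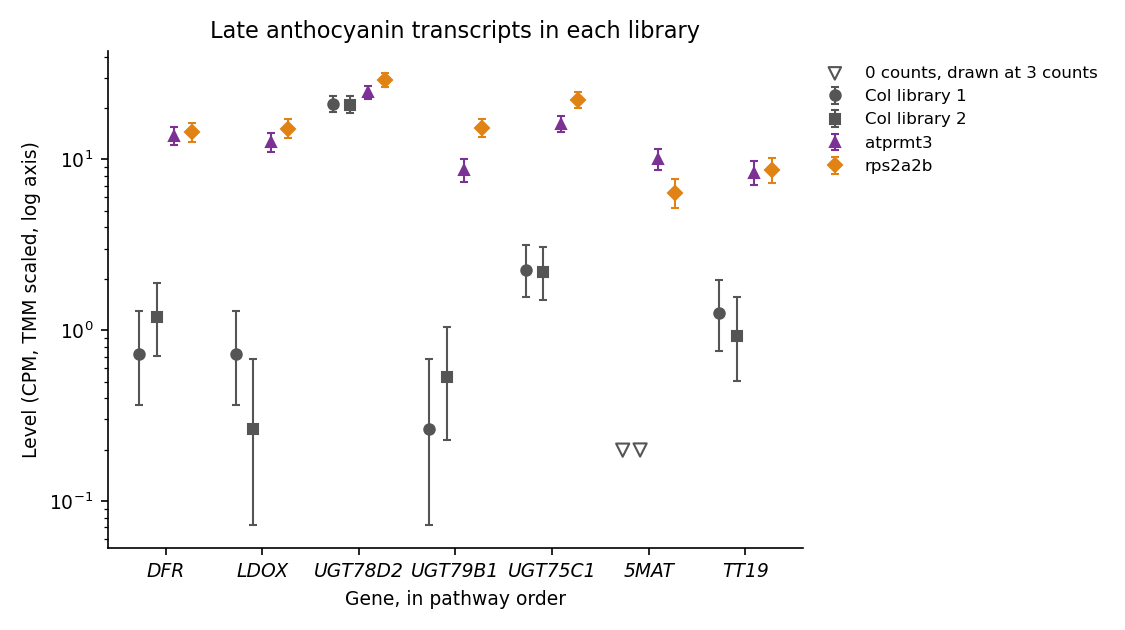
Level of each late gene in every library, in CPM on a log axis. Points are libraries, bars are 95% counting intervals, and open triangles mark the 0 counts of 5MAT in Col, drawn at 3 counts. The Col libraries lie below both mutants for 6 genes by a wide gap, while UGT78D2 runs from 20.9 to 29.2 CPM over the 4 libraries.

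Placed among all tested genes with a fold, the 6 genes lay in the upper tail of each comparison. In atprmt3, 6 genes stood above the bound of 5MAT, 62 above LDOX, 78 above UGT79B1, 147 above DFR, 357 above TT19 and 387 above UGT75C1. UGT78D2 was exceeded by 6990 genes, or 33.5%. In rps2a2b the corresponding numbers were 37 genes for 5MAT, 106 for LDOX, 83 for UGT79B1, 210 for DFR, 455 for TT19 and 341 for UGT75C1. There 4576 genes, or 21.9%, lay above UGT78D2.

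**Figure D2:**
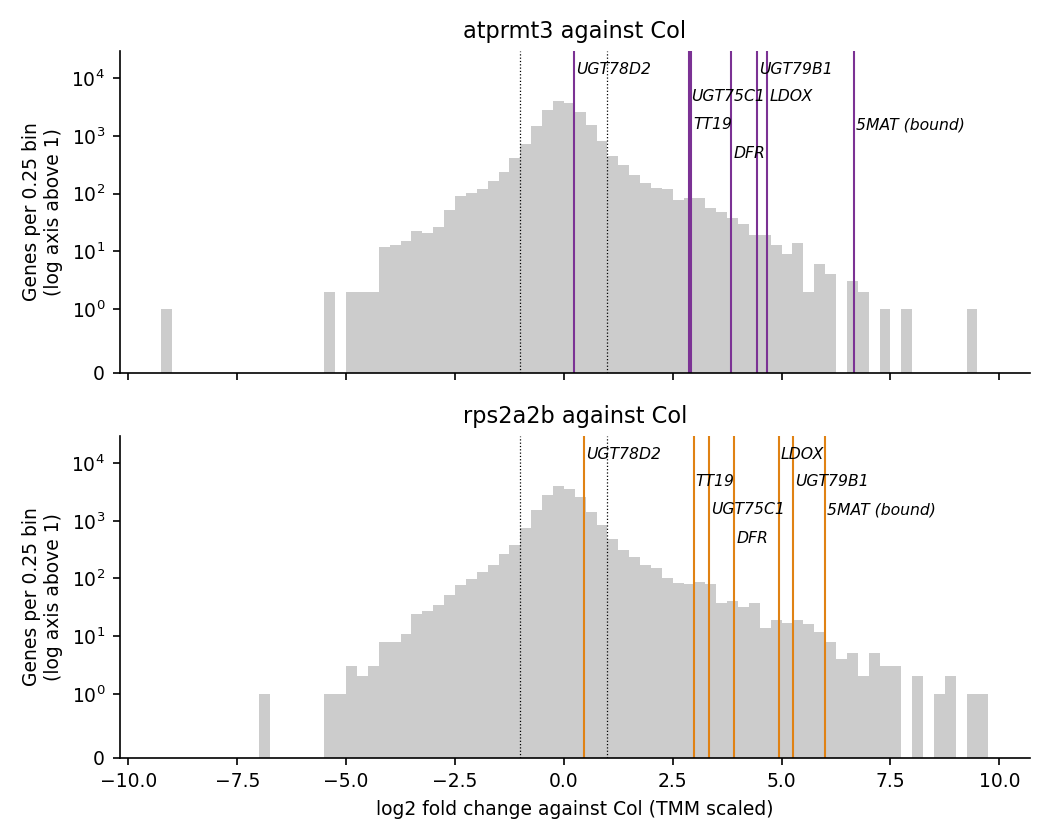
Histogram of log2 fold changes against Col over the tested genes, with genes per bin on a log axis above 1, and coloured lines at the 7 late genes. Dotted lines mark a 2-fold difference. UGT78D2 lies within the bulk of each distribution at 0.24 and 0.47, and the other lines lie at 2.87 or above.

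The late-gene count did not hang on the 2-fold limit. At 4-fold it was again 6 of 7 in each mutant, beside 3.58% and 4.14% of tested genes, and at 1.5-fold 6 of 7, beside 17.2% and 18.1%. Tests on the reads of the 4 libraries are given for completeness and support no difference between genotypes, since each mutant is 1 library and their spread comes from the Col pair, which differed by no more than counting noise. With edgeR's quasi-likelihood test 7 of 7 were called higher in each mutant, as were 27.5% and 26.7% of all genes. With DESeq2 6 of 7 were, all but UGT78D2, beside 9.46% and 9.62%.

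The mutants were then compared with each other without Col. None of the 7 late genes was 2-fold apart between rps2a2b and atprmt3, where 5.79% of tested genes lay at least 2-fold above atprmt3 in rps2a2b and 4.5% below. The median log2 fold change of the 7 was 0.24, beside 0.00 over all genes tested. UGT79B1 was 1.77-fold higher in rps2a2b (1.45 to 2.17), at 0.82 ± 0.36 on the log2 scale. UGT75C1 followed at 1.38-fold (1.18 to 1.61) and UGT78D2 at 1.18-fold (1.03 to 1.34). 5MAT went the other way, at 0.633 of the atprmt3 level (0.493 to 0.81), or -0.66 ± 0.43. For DFR, LDOX and TT19 the ratios were 1.05 (0.877 to 1.26), 1.19 (0.994 to 1.43) and 1.04 (0.821 to 1.31), so that these intervals include equal levels and leave out a 2-fold difference in either direction. By the widened SEs, UGT79B1 was the one gene whose 95% range (0.12 to 1.53 on the log2 scale) left out 0. The widening comes from differences between these same mutant libraries, so a range that includes 0 does not show equal levels. At 1.5-fold 1 late gene, UGT79B1, was higher in rps2a2b (11.5% of tested genes were) and at 4-fold 0 (1.91%). The tests on reads here set 1 library against 1, with the same borrowed spread, and so cannot decide whether the mutants differ. edgeR called 2 higher, UGT75C1 and UGT79B1 (12.6%), and DESeq2 0 (1.6%).

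Levels of different genes were compared per kilobase (kb) of exon. In Col, UGT78D2 stood at 13.0 CPM per kb and formed 78.4% of the sum over the 7 genes. Next came UGT75C1 at 1.35, TT19 at 0.997, DFR at 0.632, LDOX at 0.355 and UGT79B1 at 0.241 CPM per kb, with 5MAT at 0. Counting intervals of neighbours in that order overlapped, apart from UGT78D2 and UGT75C1, and 5MAT and UGT79B1. In atprmt3, UGT78D2 still led at 15.3 CPM per kb but formed 24.7% of the sum. UGT75C1 at 9.81, LDOX at 9.05 and DFR at 9.03 CPM per kb came next with overlapping intervals, followed by TT19 at 7.59, 5MAT at 5.75 and UGT79B1 at 5.23. In rps2a2b, UGT78D2 at 18 CPM per kb formed 24.8%, UGT75C1 stood at 13.5, LDOX at 10.8, DFR at 9.49 and UGT79B1 at 9.27. TT19 at 7.89 and 5MAT at 3.64 CPM per kb were lowest there. As shares of the sum, the 7 genes thus ran from 0% to 78.4% in Col. The shares ran from 8.47% to 24.7% in atprmt3 and from 5.02% to 24.8% in rps2a2b. The sum without UGT78D2 was 3.57 CPM per kb in Col, 46.5 in atprmt3 and 54.6 in rps2a2b.

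**Figure D3:**
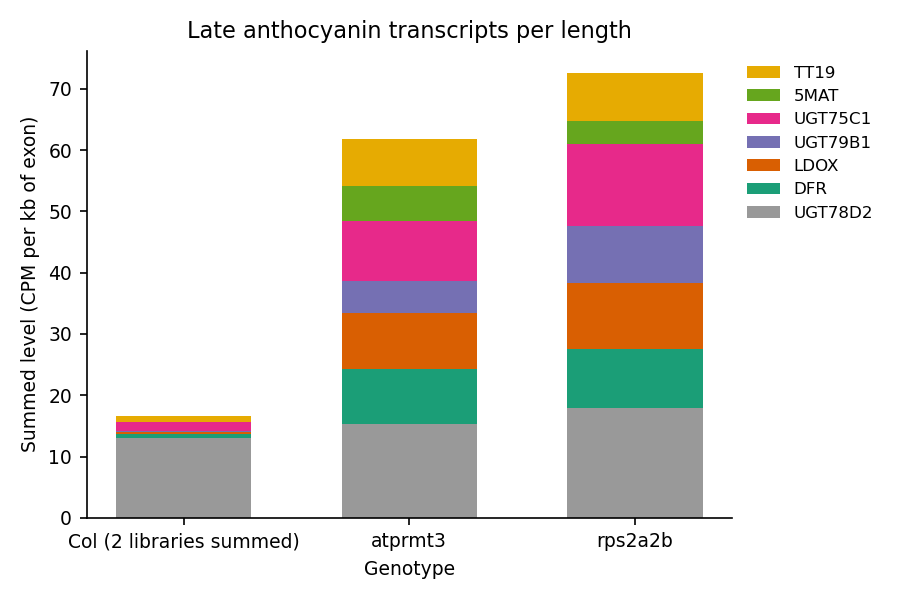
Stacked levels of the 7 late genes in CPM per kb of exon for each genotype, with the Col libraries summed. The grey UGT78D2 segment makes up 78.4% of the Col bar, 24.7% of the atprmt3 bar and 24.8% of the rps2a2b bar, while the bars total 16.5, 61.7 and 72.6.

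Most genes of the steps that feed the late genes did not reach 2-fold, and neither did most tested genes. Of 5 early flavonoid genes, which lead from the first chalcone to dihydroflavonols, 1 was at least 2-fold higher in each mutant and 0 were lower. Their median log2 fold changes were 0.85 in atprmt3 and 0.56 in rps2a2b, above the 0.01 over all genes tested in each comparison. Over all tested genes, 8.95% were at least 2-fold higher in atprmt3 and 9.96% in rps2a2b, and 6.21% and 6.19% were at least 2-fold lower. With so few genes these counts cannot be set apart from those shares. The gene past 2-fold was CHI (AT3G55120, chalcone isomerase), with 151 and 144 counts in Col, 492 in atprmt3 and 321 in rps2a2b, or 1.42 ± 0.32 and 1.03 ± 0.34. Its call in rps2a2b was lost without Col library 2, where the value fell just under the 2-fold limit. CHS (AT5G13930, chalcone synthase) stood at 0.85 ± 0.098 and 0.76 ± 0.1, and CHIL (AT5G05270), which assists chalcone synthase, at 0.60 ± 0.26 and 0.56 ± 0.27. TT7 (AT5G07990), named to complete the list, stood at 0.88 ± 0.43 and 0.43 ± 0.47. F3H (AT3G51240), which makes the dihydroflavonols, had 282 and 236 counts in Col, 535 in atprmt3 and 263 in rps2a2b. F3H was thus above Col in atprmt3, at 0.73 ± 0.26, and near Col in rps2a2b, at -0.07 ± 0.3. The direct ratio of rps2a2b to atprmt3 for F3H was 0.577 (0.496 to 0.67). Per length, the summed late genes without UGT78D2 amounted to 3.38% of the summed early genes in Col, 24.1% in atprmt3 and 32.3% in rps2a2b.

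Further upstream, 0 of 8 general phenylpropanoid genes were 2-fold higher in either mutant, with medians of 0.15 and 0.08. With 8 genes this is near the shares of all tested genes, 8.95% in atprmt3 and 9.96% in rps2a2b. C4H (AT2G30490, cinnamate hydroxylase) stood at 0.49 ± 0.075 and 0.41 ± 0.078, and PAL1 (AT2G37040, phenylalanine ammonia-lyase) at 0.12 ± 0.095 and -0.04 ± 0.1. PAL2 (AT3G53260) stood at 0.19 ± 0.12 and 0.20 ± 0.12, and 4CL1 (AT1G51680, coumarate CoA ligase) at 0.01 ± 0.085 and -0.09 ± 0.09. PAL4 (AT3G10340), named because it was the 1 gene of this list past 2-fold, was lower in rps2a2b at -1.02 ± 0.31 and stood at -0.90 ± 0.29 in atprmt3. Its call in rps2a2b was lost without Col library 1 and with scaling by total counts.

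In the flavonol branch, which draws on the same dihydroflavonols, FLS1 (AT5G08640, flavonol synthase) was 2.01-fold (1.76 to 2.3) and 2.08-fold (1.81 to 2.39) above Col. UGT78D1 (AT1G30530), a flavonol rhamnosyltransferase, stood at 1.39-fold (1.28 to 1.51) and 1.38-fold (1.27 to 1.51). UGT78D3 (AT5G17030) had 0 counts in every library. The values of FLS1 and UGT78D1 lay closer to UGT78D2 than to the other late genes. The same held for SAT and BGLU10 of the anthocyanin branch, given below. A link between branch and fold was not tested.

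Of 4 further anthocyanin decorating enzymes, 2 were at least 2-fold higher in atprmt3 (8.95% of all tested genes were) and 2 in rps2a2b (9.96%). Both were the same genes, 3AT1 and 3AT2. These had too few Col counts to pass the filter on low counts other than through the mutants, and so had to differ. 3AT1 (AT1G03940), an anthocyanin coumaroyltransferase gene, had 5 and 8 counts in Col, 137 in atprmt3 and 160 in rps2a2b, or 16.9-fold (9.54 to 32.5) and 23.1-fold (13.1 to 44.4) above Col. 3AT2 (AT1G03495), for an enzyme of the same activity, had 6 and 5 counts in Col, 70 in atprmt3 and 59 in rps2a2b, or 10.2-fold (5.36 to 21.3) and 10.1-fold (5.24 to 21.3). Their sequences are much alike: 60.1% of the 50-base stretches of 3AT1 and 59.2% of those of 3AT2 are unique in the genome, so the split of reads between them is uncertain. SAT (AT2G23000), which adds sinapoyl groups, stood at 0.07 ± 0.25 and -0.09 ± 0.27. BGLU10 (AT4G27830), which adds a further glucose, stood at 0.12 ± 0.21 and 0.16 ± 0.22. Both were well counted in Col, SAT with 330 and 333 counts and BGLU10 with 482 and 467.

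**Figure D4:**
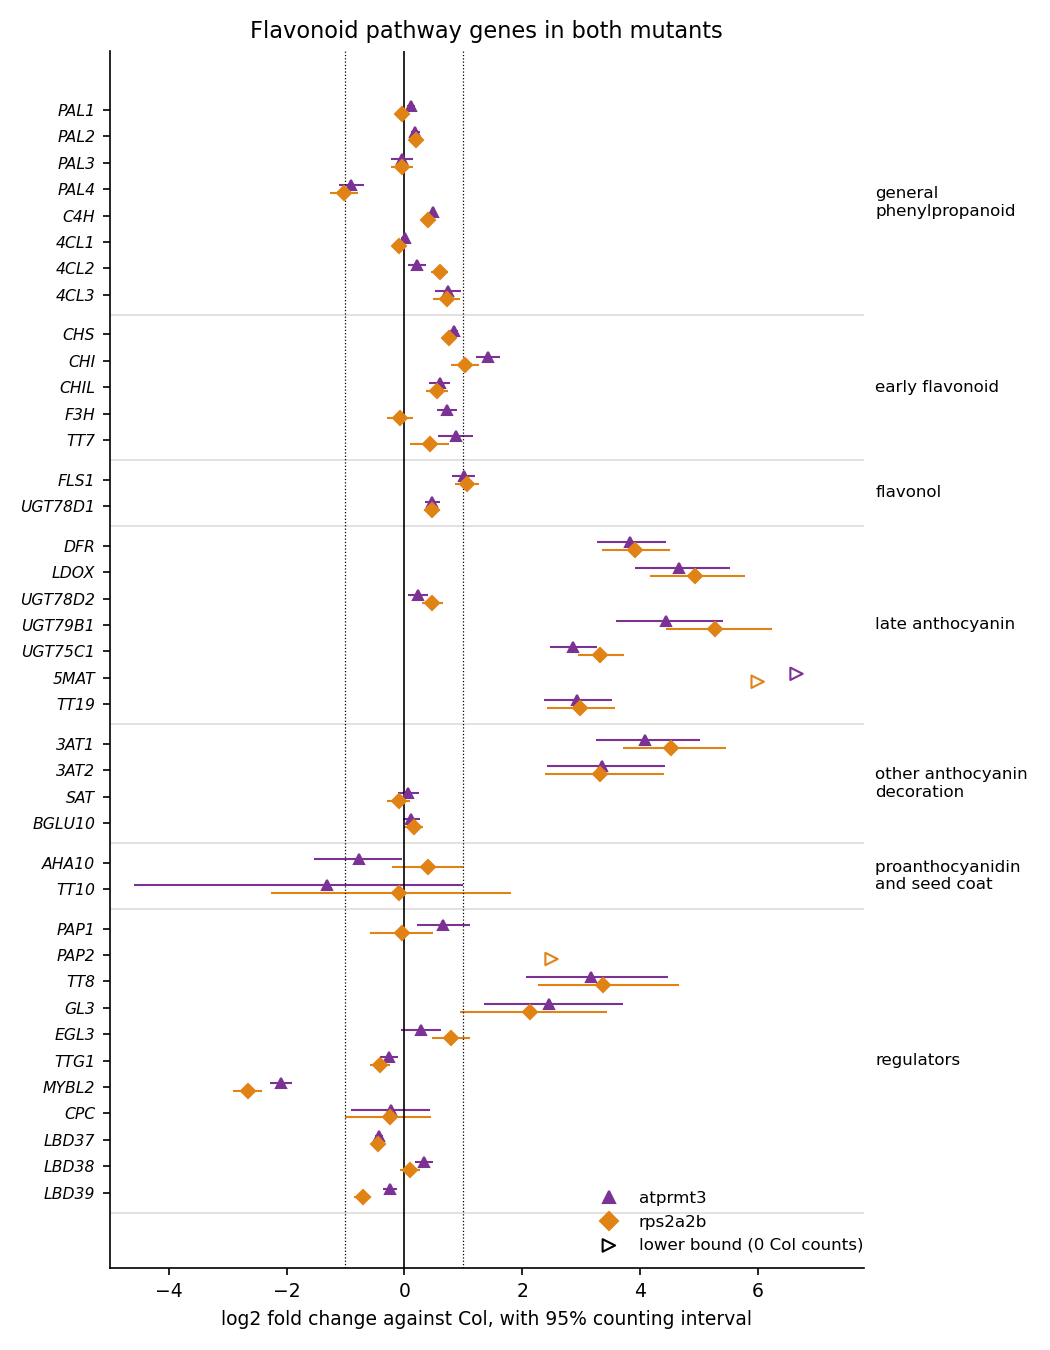
Log2 fold changes against Col of the flavonoid pathway genes with a fold, by group, for atprmt3 (triangles) and rps2a2b (diamonds), with 95% counting intervals. Open symbols are lower bounds where Col had 0 counts, and dotted lines mark 2-fold. Late genes other than UGT78D2, with 3AT1, 3AT2, TT8 and GL3, lie beyond 2-fold on the right in both mutants, CHI and FLS1 lie just past it, and PAP2 is past it in rps2a2b as a bound. On the left lie MYBL2 in both mutants, PAL4 in rps2a2b at -1.02 and TT10 in atprmt3 at -1.32, the last on 2 counts.

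Of 13 regulators, 10 had a fold in atprmt3 and 11 in rps2a2b. At least 2-fold above Col were 2 in atprmt3 (8.95% of all tested genes were) and 3 in rps2a2b (9.96%), and 1 lay at least 2-fold below in each (6.21% and 6.19%). These are few genes, and the median log2 fold changes were 0.03 and -0.04. PAP2, among the 3 in rps2a2b, did not pass the filter on low counts that the shares rest on, and its value is a bound. The others upward, TT8 and GL3, had too few Col counts to pass it other than through the mutants, and so had to differ. MYBL2 (AT1G71030) had 905 and 927 counts in Col, 269 in atprmt3 and 154 in rps2a2b, at -2.09 ± 0.24 and -2.66 ± 0.31. PAP1 (AT1G56650), a MYB activator of the late genes, had 48 and 39 counts in Col, 86 in atprmt3 and 45 in rps2a2b, or 1.58-fold (1.16 to 2.16) and 0.972-fold (0.663 to 1.41) of Col. The genes past 2-fold upward, named after their values were seen, included the bHLH genes TT8 (AT4G09820) and GL3 (AT5G41315). TT8 had 5 and 3 counts in Col, 45 in atprmt3 and 44 in rps2a2b, or 9.01-fold (4.2 to 22.1) and 10.3-fold (4.81 to 25.4). GL3 had 4 and 5 counts in Col, 31 and 21 in the mutants, or 5.51-fold (2.56 to 13.2) and 4.38-fold (1.93 to 10.9). By the widened SEs, the 95% range of the log2 fold change included 0 for both genes in both mutants. EGL3 (AT1G63650), a bHLH gene with more counts, had 81 and 86 in Col, 127 in atprmt3 and 154 in rps2a2b, or 1.22-fold (0.959 to 1.54) and 1.73-fold (1.38 to 2.17). TTG1 (AT5G24520), the WD-repeat gene of the complex, had 483 and 486 counts in Col, 505 and 386 in the mutants, or 0.834-fold (0.748 to 0.93) and 0.749-fold (0.664 to 0.843). Neither reached 2-fold, and both were added after their values were seen. PAP2 (AT1G66390), also a MYB activator, had 0 counts in Col and atprmt3 and 9 in rps2a2b, while MYB113 (AT1G66370) had 0 in every library. LBD37 (AT5G67420), LBD38 (AT3G49940) and LBD39 (AT4G37540), which repress anthocyanin genes in nitrogen-replete plants, stood at -0.43 ± 0.097, 0.34 ± 0.22 and -0.24 ± 0.17 in atprmt3. In rps2a2b they stood at -0.44 ± 0.1, 0.09 ± 0.24 and -0.70 ± 0.2.

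Genes outside the pathway lists were ranked by their distance from the members' median point in the plane of both log2 fold changes, over 19475 genes and 3 genotypes. The nearest were LSU3 (AT3G49570) at 3.90 and 3.69, BST1 (AT5G65090) at 3.71 and 4.11, XTH12 (AT5G57530) at 3.53 and 3.95, AT4G11400 at 3.79 and 4.23 and AT4G12490 at 3.75 and 3.60. The distances ran from 0.232 to 0.326. 4 of them had low Col counts like the late genes, such as 8 and 6 for LSU3, and AT4G12490 had 47 and 53. Nearness over 3 genotypes is a description of these libraries.

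Transcripts of another developmental stage also stood above Col in both mutants. Of 10 seed storage and oil body markers, 8 were at least 2-fold higher in atprmt3 (8.95% of all tested genes were) and 8 in rps2a2b (9.96%). SESA3, among the 8 in atprmt3, did not pass the filter on low counts that the shares rest on. CRU2, SESA1, SESA2 and SESA5 had too few Col counts to pass it other than through a mutant, and so had to differ. SESA1, SESA3 and CRU2 had 0 counts in Col, so their folds are bounds, and OLEO1 had 6 and 10. The summed level of the 10 markers was 43.1 CPM in Col, 669 in atprmt3 and 1312 in rps2a2b. This sum was thus higher in rps2a2b than in atprmt3. The cruciferin gene CRA1 (AT5G44120) stood at 26.0, 341 and 671 CPM, CRU3 (AT4G28520) at 13.4, 270 and 466 CPM, and the oleosin gene OLEO1 (AT4G25140) at 0.53, 21.9 and 71.8 CPM. SESA4 was at 0 in every library. Their part in the late-gene result was not tested. Seed coats make proanthocyanidins with DFR and LDOX, and of the seed coat markers BAN (AT1G61720) and TT12 (AT3G59030) had 0 counts in every library. TT10 (AT5G48100) had 5 and 3 counts in Col, 2 in atprmt3 and 4 in rps2a2b. AHA10 (AT1G17260), a proton pump gene of the same branch, had 34 and 26, 22 and 42. Markers of leaves and roots were present throughout as in whole seedlings. The 4 leaf markers summed to 34716 CPM in Col, 29123 in atprmt3 and 22840 in rps2a2b, and the 5 root markers to 114, 100 and 95 CPM. None of the leaf and root markers was 2-fold apart from Col. The root sum was mostly PHT1;1, at 76.3 CPM in Col, and the others did not move alike, with EXPA7 at 1.75-fold and 1.61-fold of Col, CASP1 at 0.661 and 0.545 and TIP2;3 at 0.754 and 0.52. The 3 floral markers summed to at most 1.43 CPM. Among them PI was at least 2-fold higher in each mutant, with 4 and 5 counts in Col and 20 in each mutant, and AG at least 2-fold lower, with 5 and 7, 0 and 3.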

How the data were processed

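Each of the 4 libraries has a deposited table of counts per gene, which are whole and not normalized. Per the labels' protocols, RNA was taken with Trizol and libraries were strand-specific by the dUTP method. Per the submitters' processing notes, TopHat2, HTSeq, edgeR and the TAIR10 genome were used; versions, read layout and the strand setting are not given in the sources used here. Reads on no gene (1.37% to 1.8% of reads listed), on more than 1 gene (2.25% to 3.26%) and with more than 1 alignment (6.74% to 7.16%) are in no gene's count, which lowers overlapping and duplicated genes.

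Gene identifiers were matched to RefSeq TAIR10.1 (33056 of 33341, all 7 late genes) for symbols, positions, exon lengths and sequences. Genes of low count were removed by filterByExpr with a minimum count of 10 and a minimum total of 15, which left 20937, and counts were scaled by TMM factors in edgeR 4.0.16 (R 4.3.3). Folds are ratios of scaled counts with the Col libraries summed, and a count of 0 in 1 group was set to 3 counts, giving a bound. Intervals are exact at 95% (Poisson for levels, conditional binomial for ratios). A gene was called at 2-fold. The chi-square of library pairs used genes with at least 10 summed counts, and its value for the mutant pair among genes with 10 to 99 widened the SEs. With n = 1 a genotype no test of genotypes was made; edgeR's quasi-likelihood test and DESeq2 1.42.0 on the reads of the 4 libraries, other scalings, a prior count, no filter, other folds and leaving out a Col library were alternatives. The calling and interval procedures were tested on simulated counts. The members, gene lists and this design were chosen with earlier results of these data known. Genes named outside the 7 are the 4 most abundant of each list, MYBL2, PAP1, the 5 nearest genes, the targeted genes and markers, and others where stated. Nearest genes needed at least 50 summed counts and reads in all genotypes.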

Additional observations from a re-analysis of the deposited data

How the results depend on the processing

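The count of 6 late genes at least 2-fold above Col held in both mutants with DESeq2 size factors, upper-quartile factors, total counts, no filter, a prior count of 2, either Col library left out, and calls at 1.5-fold or 4-fold. That count includes UGT79B1 and 5MAT, which passed the filter through the mutants alone. On the reads of the 4 libraries edgeR called 7 of 7 higher in each mutant, and DESeq2 called 6 of 7, with a spread taken from the Col pair alone. Between the mutants, 0 late genes were 2-fold higher in rps2a2b, but 1 was at 1.5-fold (UGT79B1), and edgeR called 2 (UGT75C1 and UGT79B1), DESeq2 0. The median log2 fold change ran from 3.52 to 4.12 in atprmt3 and from 3.60 to 4.31 in rps2a2b over all alternatives, the extremes coming from leaving out a Col library, and from 0.22 to 0.30 between the mutants. Total counts shifted the median of all genes in rps2a2b against Col to 0.14, from 0.01. Leaving out a Col library put LDOX between 4.12 and 5.58 in atprmt3 and between 4.38 and 5.83 in rps2a2b. For 5MAT it halved the bound, to 50.4-fold and 31.9-fold, since 3 counts then stand for 1 library. Of 475 values for single late genes and other lists, 463 stayed within their counting interval or within 1.5 times their count. CHI fell just under 2-fold in rps2a2b without Col library 2, TT10 in atprmt3 lost its place past 2-fold lower with a prior count or without Col library 1, and the prior count left 1 of 2 proanthocyanidin genes at least 2-fold higher between the mutants. No paired analysis was possible because each mutant has a single library, which belongs to no particular Col library. Depth limits the Col levels of LDOX, UGT79B1 and 5MAT, which rest on 15, 12 and 0 summed counts.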

Other observations

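The protein-coding genes next to the late genes on the chromosome were chosen by position after the files had been seen. Of 14 neighbours, 4 had 0 counts in every library. Of the 10 with a fold, 3 were at least 2-fold higher in atprmt3 (8.95% of all tested genes were), 3 in rps2a2b (9.96%) and 0 lower in either, with median log2 fold changes of 0.24 and 0.58. The neighbours were not filtered on low counts, whereas the shares are over filtered genes, so these are not like for like. IPK1 (AT5G42810), 669 bases from DFR, had 209 and 194 counts in Col, 228 in atprmt3 and 276 in rps2a2b. AT4G22890, 776 bases from LDOX, had 4022 and 4103, 4165 and 2980. AT5G17040, 659 bases from UGT78D2, stood higher than UGT78D2 itself relative to Col, with 13 and 17 counts in Col, 75 in atprmt3 and 29 in rps2a2b, or log2 fold changes of 2.00 and 0.86. AT5G54050 beside UGT79B1 had 1 and 4, 11 and 9 counts. AT3G29580 beside 5MAT had 0 in both Col libraries, 5 in atprmt3 and 10 in rps2a2b. AT3G29630, on the other side of 5MAT at 46669 bases, stood at 0.19 and 1.09.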
